A study of Mus musculus with 78 samples.

Results

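The second day of ZFP143 depletion was read as the difference between mouse embryonic stem cells (mESCs) harvested after 48 h and after 24 h of degrader, in 2 RNA-seq libraries per time. A gene was included if more than 10 reads were counted in at least 2 of these 4 libraries, which held for 14058 of the 55401 genes in the count table. All 4 libraries came from E14TG2a cells, a 129/Ola line, of genotype ZFP143-FKBP, in which the endogenous protein carries a degradable FKBP tag, and all received 500 nM dTAG-V1, the molecule that directs the tagged protein to degradation, for 24 h or 48 h. The line was derived from single sorted cells, and the cells grew on gelatin in serum-free medium with LIF and inhibitors of MEK and GSK3-β. DMSO controls and libraries after 72 h of dTAG-V1 belong to the same time course and were not part of the contrast. The labels give no time for the DMSO cultures, so a further day of depletion and a further day in culture cannot be told apart. Methods of the study describe the RNA-seq replicates as biological, and p-values measure the spread between these libraries. The comparison asks how the transcriptome of cells that had already lost ZFP143 moved during the following day.

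ZFP143, the mouse ortholog of human ZNF143, is a zinc finger transcription factor that binds mainly at promoters, where it acts as an activator of housekeeping genes, among them genes of mitochondrial function and translation. Degradation of an activator first lowers the transcription of genes it binds, and messages then decline at their own rates, so that later changes can include responses of the cell to what it has lost. Embryonic stem cells in medium with LIF and both inhibitors are held in naive pluripotency, a state marked by genes such as Nanog, Dppa3 and Esrrb.

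Total counts ranged from 10760455 to 12496700 in the 4 libraries, and from 10261851 to 15316700 over all 8 of the time course. Values per library are given as CPM, which are counts scaled to library size with factors from the TMM method. The 24 h and 48 h pairs were each close, with a Pearson correlation over genes of 0.994 in log2 CPM for both. In DMSO replicate 1 the transcript CT010467.1 held 3.59% of the counts, against at most 1.11% for the top gene of the other libraries. For the contrast of 48 h minus 24 h, DMSO and 72 h libraries lent the estimate of the spread, and 72 h was also compared with DMSO below. The SD of the log2 difference within a pair was 0.31 in DMSO, 0.27 at 24 h, 0.25 at 48 h and 0.27 at 72 h. Stem cell markers were present at both times, with Pou5f1, a core pluripotency factor, at 1031 and 1031 CPM at 24 h and 843 and 805 CPM at 48 h. Zfp143 RNA, which the degrader does not target, stood at 95.4 and 90.8 CPM at 24 h and 95.2 and 93.4 CPM at 48 h (log2 fold change 0.02 ± 0.056 SE, adjusted p = 1), against 43.3 and 44.6 CPM in DMSO, so the RNA gives no check of protein loss. Mitochondrially encoded transcripts made up 1.27% and 1.31% of counts at 24 h and 0.953% and 1.04% at 48 h. In these bulk samples fewer cells of a type and less RNA per cell cannot be told apart.

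Over the second day 128 genes fell and 329 rose by more than 1.5-fold (edgeR glmTreat, adjusted p under 0.01), 0.911% and 2.34% of the genes tested. Differences of any size took in more genes, with 3285 genes lower (23.4%) and 3200 higher (22.8%) at an adjusted p under 0.05 in edgeR's quasi-likelihood test. The split depended on the scaling, since library size alone in place of TMM gave 2436 lower and 4013 higher, and the any-size counts of lists below are those with TMM. The median log2 fold change of all genes was 0.01. Among the genes that rose, the median log2 fold change was 1.56, 288 of 329 passed 2-fold and 92 passed 4-fold. Among those that fell the median was -1.10, 79 of 128 passed 2-fold and 13 passed 4-fold. In 18 of the risen genes and 1 of the fallen genes a group held at most 3 counts in all, and the size of those changes has a wide counting error. Many risen genes at low levels met the count rule only through the 48 h libraries, and a few fallen genes only through those of 24 h. The count rule thus bears on the sizes of rises and falls, and their medians are not directly comparable. The risen genes had a median level of 6.95 CPM, against 34.9 CPM for the fallen and 26 CPM for all genes. With 1 of the 4 libraries left out, 61 of the 128 falls and 121 of the 329 rises were called each time, and none of the 457 genes changed sign. DESeq2 with the same thresholds called 59 lower and 115 higher, and of the called genes named below it did not call Pck2, Ppp1r15a, Fas, Pmaip1, Perp, Slc16a3, Prdx1, Cyp1b1, Ccne1, Snai1, Zic1, Sox11, Nefm, Itgb4, Jun, Ccnd2, Tgfb2, Smad6, Relb, Lhpp, Neil1, Itpr1, H2afy, Ctns, Pafah2, Dcun1d2 or Apela. In simulated counts of the same size the test recovered 64% of 2-fold and 94% of 4-fold changes. The changed genes there were drawn at random from all levels, so these shares do not describe recovery at the low levels of most rises.

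**Figure D1:**
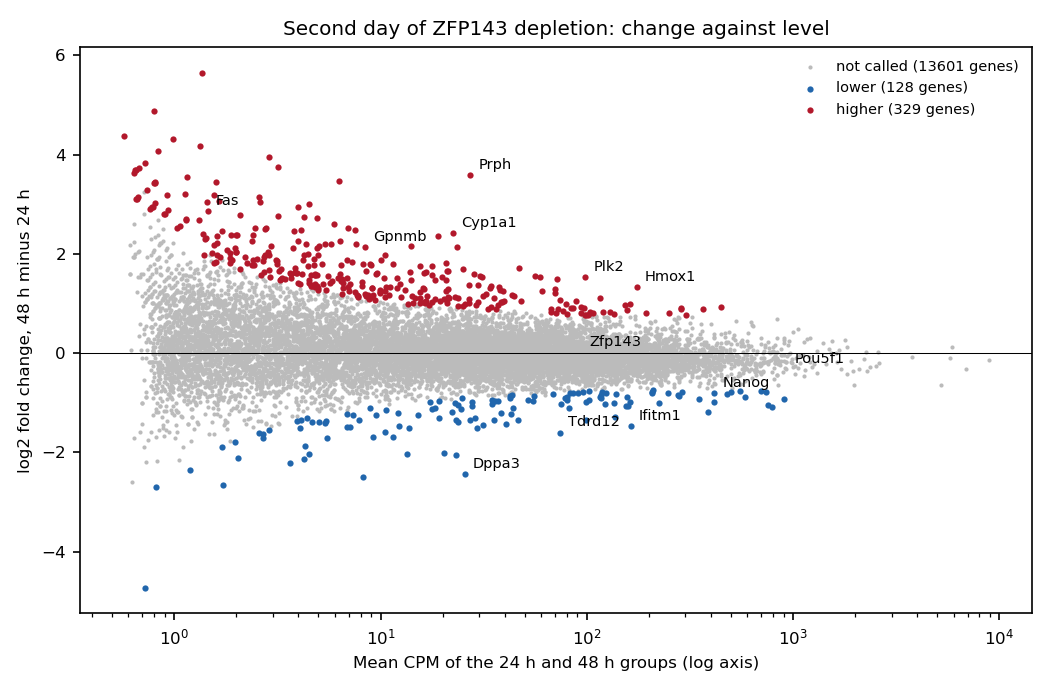
Each point is 1 of the 14058 genes, with the mean CPM of the 24 h and 48 h groups on a log axis and the log2 fold change between them. The 329 genes that rose lie mostly at low levels and the 128 that fell reach higher levels, while Pou5f1 and Zfp143 lie at -0.32 and 0.02.

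The gene with the greatest increase among protein-coding genes with a mean count of at least 100 was Prph, which encodes peripherin, a neuronal intermediate filament protein, and lies at chr15:99055174-99058978, plus strand (mm10). Its RNA stood at 4.03 and 4.38 CPM at 24 h and 50.5 and 50.2 CPM at 48 h (log2 fold change 3.58 ± 0.11 SE, adjusted p = 8.11e-18), after 1.11 and 0.933 CPM in DMSO, and reached 93.5 and 97.6 CPM at 72 h. Cyp1a1, a cytochrome P450 that oxidises foreign compounds, followed with 6.85 and 7.39 CPM at 24 h and 39.4 and 36.4 CPM at 48 h (log2 fold change 2.42 ± 0.11 SE, adjusted p = 2.66e-13). Steap1, a member of a family of membrane metalloreductases, had 5.24 and 7.30 CPM at 24 h and 32.6 and 31.1 CPM at 48 h (log2 fold change 2.36 ± 0.13 SE, adjusted p = 4.56e-12). In all of these both 48 h libraries stood above both 24 h libraries, which the rule for naming them required. Acot2, a mitochondrial thioesterase that releases fatty acids from coenzyme A, had 5.08 and 5.20 CPM at 24 h and 21.9 and 24.0 CPM at 48 h (log2 fold change 2.15 ± 0.13 SE, adjusted p = 1.30e-10). Serpine2, a secreted inhibitor of serine proteases, had 9.43 and 7.94 CPM at 24 h and 37.2 and 39.5 CPM at 48 h (log2 fold change 2.13 ± 0.12 SE, adjusted p = 8.30e-12). Hrk, a BH3-only activator of apoptosis, had 4.19 and 4.29 CPM at 24 h and 15.9 and 17.8 CPM at 48 h (log2 fold change 1.99 ± 0.18 SE, adjusted p = 2.60e-07). These 3 genes were below 10 CPM in each 24 h library and above 15 CPM in each 48 h library. The rise of Esrp1, a splicing regulator of epithelial cells, was from 9.43 and 8.94 CPM to 32.0 and 33.1 CPM (log2 fold change 1.82 ± 0.11 SE, adjusted p = 3.47e-10).

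Other genes of the 12 with the greatest increase included the formin Inf2, which builds actin filaments (4.52 and 4.01 CPM at 24 h and 13.4 and 18.1 CPM at 48 h), and the synaptic scaffold gene Caskin1 (6.21 and 4.01 CPM at 24 h and 19.5 and 16.3 CPM at 48 h). The remaining members were Adssl1, an enzyme of purine nucleotide synthesis, the bradykinin receptor gene Bdkrb2, and Mroh4, with log2 fold changes of 1.79, 1.77 and 1.76. No library of one time overlapped the other in any of the 12, which the rule for naming them required. At 72 h Cyp1a1 stood at 120.3 and 128 CPM, while Steap1 stood at 32.1 and 32.8 CPM, near its 48 h level, and Esrp1 at 27.6 and 25.5 CPM, below it.

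Dppa3, also known as Stella and a marker of naive stem cells and germ cells, had the greatest decrease by the same rule (chr6:122626410-122630272, plus strand). It went from 45.4 and 41.0 CPM at 24 h to 8.71 and 7.2 CPM at 48 h (log2 fold change -2.44 ± 0.11 SE, adjusted p = 2.42e-13), after 79.9 and 79.8 CPM in DMSO, and stood at 3.4 and 2.24 CPM at 72 h. Tdrd12, a Tudor domain protein of the piRNA pathway that silences transposons, was above DMSO at 24 h, with 77.5 and 83.0 CPM in DMSO, 111 and 111 CPM at 24 h and 35.2 and 37.9 CPM at 48 h (log2 fold change -1.6 ± 0.069 SE, adjusted p = 9.61e-13), and 5.98 and 7.33 CPM at 72 h. Its 48 h libraries lay below DMSO and 24 h alike. Ifitm1, an interferon-inducible membrane protein, had 241 and 238 CPM at 24 h and 85.5 and 86.7 CPM at 48 h (log2 fold change -1.48 ± 0.053 SE, adjusted p = 9.42e-14) and stayed near that level at 72 h, at 85.9 and 86.2 CPM. Gadd45b, a stress-inducible gene, had 19.9 and 20.5 CPM in DMSO, 18.1 and 17.8 CPM at 24 h and 7.35 and 5.60 CPM at 48 h (log2 fold change -1.46 ± 0.14 SE, adjusted p = 1.16e-05), and was lower again at 72 h, at 2.85 and 3.94 CPM.

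Other genes with a great decrease encode membrane proteins and enzymes. Atp10a, a phospholipid flippase, had 22.8 and 20.3 CPM at 24 h and 5.12 and 5.51 CPM at 48 h (log2 fold change -2.02 ± 0.14 SE, adjusted p = 1.35e-09). The sialyltransferase gene St3gal2 had 17.7 and 17.4 CPM at 24 h and 5.20 and 5.69 CPM at 48 h (log2 fold change -1.69 ± 0.14 SE, adjusted p = 1.53e-07). Both were already lower at 24 h than in DMSO, where Atp10a stood at 30.1 and 30.3 CPM and St3gal2 at 80.4 and 71.6 CPM. Cox7a1, an isoform of a cytochrome c oxidase subunit, differed in this respect, with 15.8 and 13.9 CPM in DMSO, 13.4 and 14.6 CPM at 24 h and 3.68 and 5.06 CPM at 48 h (log2 fold change -1.68 ± 0.17 SE, adjusted p = 3.31e-06). Cbr3, a carbonyl reductase, Fam25c, and the nucleoside transporter gene Slc28a1 fell with log2 fold changes of -1.59, -1.51 and -1.51.

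**Figure D2:**
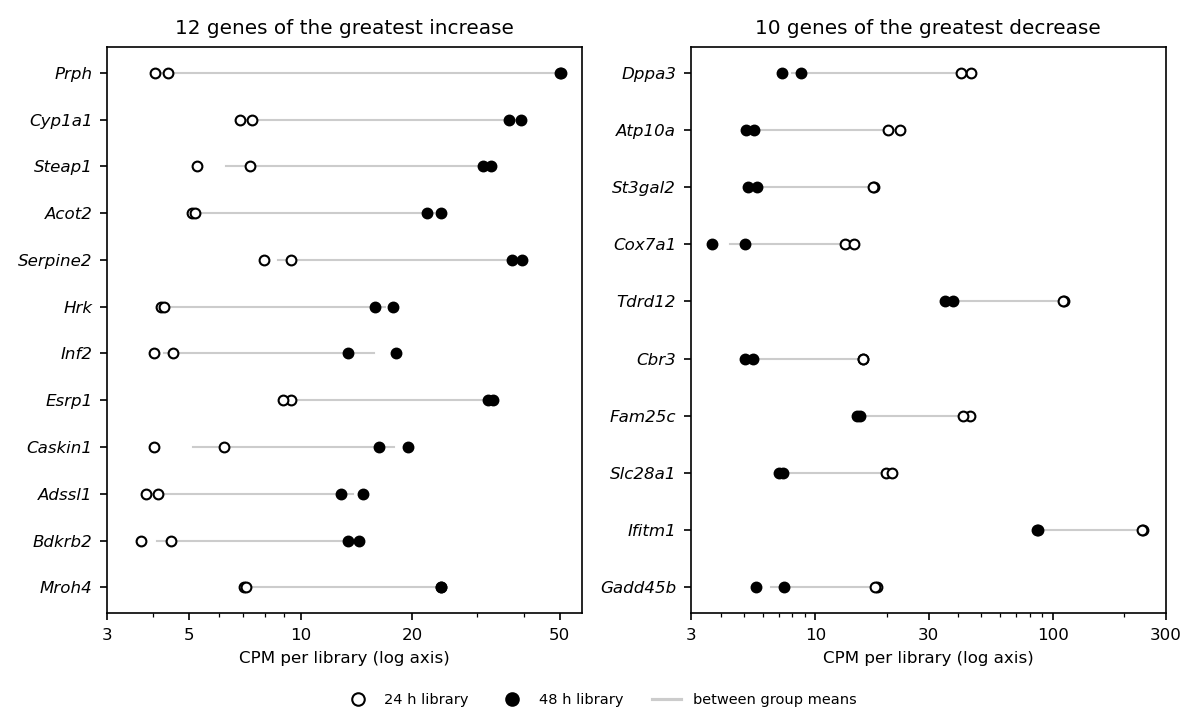
CPM per library on a log axis for the 12 genes with the greatest increase and 10 of those with the greatest decrease, with open points for the 2 libraries of 24 h and filled points for the 2 of 48 h. The points of the 2 times do not overlap in any of these genes, which the rule for naming them required. The libraries of a time lie close together beside the distance between times.

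Targets of p53 held 8 rises among 30 members, the highest number in the 38 lists examined, although not the highest share, since 3 of 7 aryl hydrocarbon receptor genes and 5 of 16 neural genes rose. Beside these and all later list counts, 0.911% of all genes fell and 2.34% rose, with 23.4% lower and 22.8% higher at any size. Of the 30 members that met the count rule none fell and 25 were higher at any size, with a list median of 0.52. Their summed level was 3416 and 3394 CPM at 24 h and 4797 and 4884 CPM at 48 h, after 3124 and 3144 CPM in DMSO. Plk2, a polo-like kinase, went from 49.8 and 51.3 CPM to 142 and 150.2 CPM (log2 fold change 1.53 ± 0.056 SE, adjusted p = 9.78e-14). The death receptor gene Fas stood at 0.242 and 0.456 CPM at 24 h and 2.80 and 2.31 CPM at 48 h (log2 fold change 2.87 ± 0.45 SE, adjusted p = 2.78e-04). Pmaip1, which encodes the BH3-only protein Noxa, had 3.71 and 3.10 CPM at 24 h and 10.2 and 8.89 CPM at 48 h (log2 fold change 1.48 ± 0.19 SE, adjusted p = 2.78e-04). All 3 went up in both libraries, and Plk2 and Pmaip1 were higher again at 72 h, at 181 and 175 CPM and 13.0 and 15.0 CPM. Mdm2, the ubiquitin ligase that degrades p53, had 197 and 204 CPM at 24 h and 362 and 386 CPM at 48 h (log2 fold change 0.90 ± 0.045 SE, adjusted p = 1.22e-06). The other rises were Ddit4l, an inhibitor of mTORC1 signalling (1.32), the p53 relative Trp73 (1.24), the membrane protein gene Perp (1.15) and Trp53inp1, a cofactor of p53 (0.93). Cdkn1a, the cell cycle inhibitor p21, did not pass the fold test, at 175 and 174 CPM at 24 h and 222 and 211 CPM at 48 h (log2 fold change 0.31 ± 0.048 SE, adjusted p = 1), and Bbc3, which encodes the BH3-only protein PUMA, stood at 45.3 and 40.7 CPM at 24 h and 47.2 and 44.8 CPM at 48 h. The calls of Plk2, Mdm2, Ddit4l and Trp53inp1 held in every fit without 1 library. Fas was not called without 24 h replicate 1 (2.46, adjusted p = 0.0192) and did not meet the count rule without either 48 h library, Pmaip1 was not called without 24 h replicate 2 (1.36, adjusted p = 0.0118), Trp73 lost its call without 24 h replicate 1 (adjusted p = 0.0109) and Perp without each of the 4 in turn (adjusted p up to 0.0497).

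Of 20 measured members of the apoptosis machinery 1 rose, which was Hrk, none fell, and 7 were lower and 2 higher at any size, with a median of -0.02 that was 0.05 with library size alone as the scaling. Hrk and Pmaip1 both encode BH3-only proteins, which neutralise anti-apoptotic members of the BCL-2 family.

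Lysosomal genes were mostly higher at 48 h. Of 31 members, 4 rose and 22 were higher at any size, while 1 was lower, and the median was 0.41. The summed level went from 4587 and 4540.4 CPM to 6152 and 6260.1 CPM, where DMSO held 4702 and 4814 CPM and 72 h held 7859 and 7765 CPM. Gpnmb, a glycoprotein of lysosomes and melanosomes, had 2.98 and 3.19 CPM at 24 h and 13.0 and 14.3 CPM at 48 h (log2 fold change 2.14 ± 0.17 SE, adjusted p = 1.30e-08). Ctsd, the aspartyl protease cathepsin D, had 101 and 105 CPM at 24 h and 201 and 202 CPM at 48 h (log2 fold change 0.97 ± 0.047 SE, adjusted p = 9.95e-08). Sqstm1, the autophagy receptor p62, had 256 and 256 CPM at 24 h and 469 and 474 CPM at 48 h (log2 fold change 0.88 ± 0.041 SE, adjusted p = 7.09e-07), and the peptidase gene Tpp1 a log2 fold change of 0.88. Ctsd and Sqstm1 had stood near the 24 h level in DMSO, at 100.2 and 101 CPM and 261 and 253 CPM. The genes Tfeb and Tfe3, whose products are transcription factors of lysosomal genes, had log2 fold changes of -0.11 and -0.03 and were not called.

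Among 7 genes of the aryl hydrocarbon receptor, a ligand-activated factor that induces xenobiotic enzymes, 3 rose and 1 fell. Cyp1a1 was the one with the greatest change. Cyp1b1, a related P450, had 0.484 and 0.365 CPM at 24 h and 2.24 and 2.40 CPM at 48 h (log2 fold change 2.41 ± 0.45 SE, adjusted p = 0.0023), and Tiparp, a feedback inhibitor of the receptor, had 36.8 and 34.8 CPM at 24 h and 86.3 and 84.4 CPM at 48 h (log2 fold change 1.25 ± 0.081 SE, adjusted p = 8.19e-08). The receptor gene Ahr itself stood at 17.7 and 17.9 CPM at 24 h and 15.3 and 18.8 CPM at 48 h. The call of Cyp1b1 was lost without 24 h replicate 1 or 24 h replicate 2 (adjusted p up to 0.0408), and without either 48 h library it did not meet the count rule. The other 3 calls held in every fit without 1 library. Nqo1, a quinone reductase that both this receptor and NRF2 can induce, went the other way, from 56.7 and 50.1 CPM to 24.4 and 22.2 CPM (log2 fold change -1.20 ± 0.085 SE, adjusted p = 8.06e-07).

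NRF2, a factor of the antioxidant response, has targets that moved both ways on the second day. Of 15 members 2 fell and 1 rose, 8 were lower and 2 higher at any size, and the median was -0.44. Hmox1, the heme oxygenase gene, went from 95.9 and 102 CPM to 246 and 253 CPM (log2 fold change 1.33 ± 0.048 SE, adjusted p = 2.66e-13), whereas Nqo1 fell and the peroxiredoxin gene Prdx1 had 664 and 593 CPM at 24 h and 369 and 364 CPM at 48 h (log2 fold change -0.78 ± 0.047 SE, adjusted p = 0.00107). Prdx1 was not called without 24 h replicate 1 (-0.70, adjusted p = 0.103), 48 h replicate 1 (-0.78, adjusted p = 0.0165) or 48 h replicate 2 (-0.76, adjusted p = 0.0345). The thioredoxin reductase gene Txnrd1 and the pentose phosphate genes G6pdx and Pgd had log2 fold changes of -0.59, -0.77 and -0.63, lower at any size only.

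Glycolysis held 7 falls among 19 members, the highest number and share in the 38 lists. None rose, and 16 were lower and 1 higher at any size, with a median of -0.56. The summed level went from 8509 and 8721 CPM to 6323 and 6282 CPM, after 12792 and 12811 CPM in DMSO. Aldoa, an aldolase, had 2081 and 1989.7 CPM in DMSO, 1029 and 1109.8 CPM at 24 h and 514 and 499 CPM at 48 h (log2 fold change -1.08 ± 0.042 SE, adjusted p = 1.01e-10). Tpi1, triosephosphate isomerase, had 203 and 218 CPM at 24 h and 100.2 and 100 CPM at 48 h (log2 fold change -1.07 ± 0.051 SE, adjusted p = 5.51e-09). Ldha, the lactate dehydrogenase subunit that makes lactate from pyruvate, had 562 and 536 CPM at 24 h and 276 and 279.6 CPM at 48 h (log2 fold change -0.98 ± 0.042 SE, adjusted p = 6.08e-09). Slc16a3, which encodes the lactate exporter MCT4, had 11.7 and 15.1 CPM at 24 h and 4.8 and 6.58 CPM at 48 h (log2 fold change -1.24 ± 0.17 SE, adjusted p = 0.00209). In these 4 genes the 24 h libraries also lay below those of DMSO, where Tpi1 stood at 455 and 481 CPM, Ldha at 1053 and 1069 CPM and Slc16a3 at 58.4 and 64.2 CPM. Eno1, Pkm and Pfkl, which encode enolase, pyruvate kinase and phosphofructokinase, fell with log2 fold changes of -0.92, -0.92 and -0.88. In contrast Slc2a3, a glucose transporter, was higher at any size (1296 and 1286 CPM at 24 h and 1487 and 1490.3 CPM at 48 h). Gapdh, often used as a reference gene, was lower at any size, at 1272 and 1270.4 CPM at 24 h and 1005 and 993 CPM at 48 h. Slc16a3 was not called without 24 h replicate 2 (-1.05, adjusted p = 0.0647) or 48 h replicate 1 (-1.01, adjusted p = 0.132), and the other 6 calls held without each library.

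Cholesterol synthesis and uptake genes were lower by small amounts. Of 24 members 17 were lower and 2 higher at any size, and the median was -0.29. The summed level of the list was 3123 and 3089 CPM at 24 h and 2664 and 2574 CPM at 48 h and stood higher at 72 h, at 3671 and 3582 CPM.

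**Figure D3:**
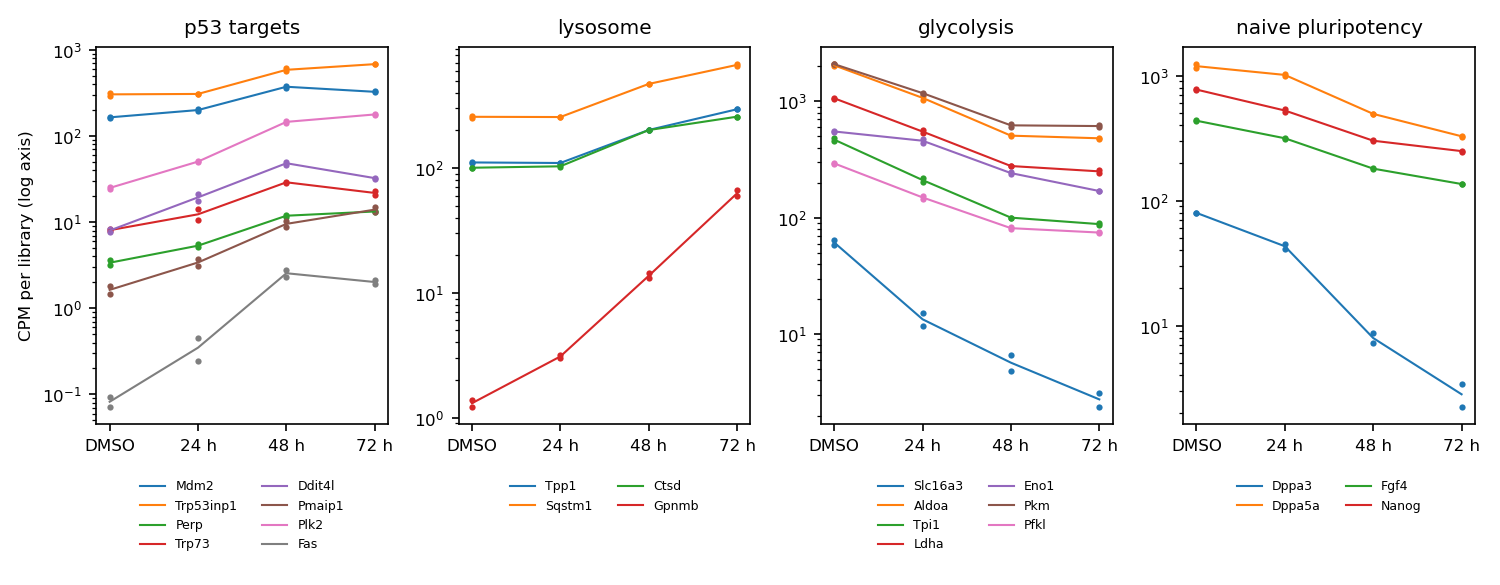
CPM per library on log axes over DMSO, 24 h, 48 h and 72 h for the members of 4 lists that passed the fold test between 24 h and 48 h, with points for the 2 libraries of each group and lines through their means. The members shown were chosen by that test, so their difference between 24 h and 48 h follows from the choice. Those of p53 and lysosome rise, and those of glycolysis and naive pluripotency fall. Of all 22 naive pluripotency genes 13 were lower and 6 higher at any size. Ctsd, Sqstm1, Tpp1 and Trp53inp1 are level between DMSO and 24 h, whereas the glycolysis members shown are already lower at 24 h.

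Of 22 naive pluripotency genes 4 fell and none rose, while 13 were lower and 6 higher at any size (beside 23.4% and 22.8% of all genes), with a median of -0.20. Dppa5a, an RNA-binding protein of stem cells, went from 1037 and 993 CPM to 493 and 497 CPM (log2 fold change -1.04 ± 0.042 SE, adjusted p = 4.63e-10). Nanog, a homeobox factor of the naive network, had 539.8 and 514 CPM at 24 h and 301 and 303 CPM at 48 h (log2 fold change -0.80 ± 0.041 SE, adjusted p = 7.07e-05), and Fgf4, the growth factor that stem cells secrete, had 318 and 314 CPM at 24 h and 182 and 179 CPM at 48 h (log2 fold change -0.81 ± 0.043 SE, adjusted p = 9.88e-05). In these genes and in Dppa3 the libraries of the 2 times did not overlap, as in all 128 genes that fell. Other factors of the same network were not called, and Esrrb and Klf4 were higher at any size, with Esrrb at 892 and 896 CPM at 24 h and 1004 and 994 CPM at 48 h, Tfcp2l1 at 971 and 947 CPM at 24 h and 966 and 941 CPM at 48 h and Klf4 at 153 and 161 CPM at 24 h and 186 and 182 CPM at 48 h. Zfp42, also called Rex1, had 426 and 434 CPM at 24 h and 386 and 389 CPM at 48 h (log2 fold change -0.15 ± 0.040 SE, adjusted p = 1).

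Of 12 core pluripotency genes 1 rose and 6 were lower at any size. Sox2 had 409 and 388 CPM at 24 h and 296 and 278 CPM at 48 h and Pou5f1 a log2 fold change of -0.32, both lower at any size, and Sall4 had 309 and 323 CPM at 24 h and 272 and 262 CPM at 48 h. The gene that rose, Dnmt3l, encodes a cofactor of the de novo DNA methyltransferases, with 0.484 and 1.37 CPM at 24 h and 6.71 and 7.29 CPM at 48 h (log2 fold change 2.94 ± 0.28 SE, adjusted p = 1.46e-07), and it stood at 20.6 and 22.7 CPM at 72 h. In the formative and primed list none of 14 members passed the fold test, with 3 lower and 3 higher at any size (median -0.05, 0.02 with library size alone as the scaling). These any-size counts are near the shares of all genes, 23.4% lower and 22.8% higher. Sox3 had the largest difference of that list, at 1.21 and 0.912 CPM at 24 h and 2.64 and 3.02 CPM at 48 h (log2 fold change 1.39 ± 0.34 SE, adjusted p = 0.0609).

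Genes of Nodal, TGF-beta and BMP signalling, pathways of secreted ligands that act through SMAD factors, moved both ways. Of 18 members 3 fell and 2 rose, and 8 were lower and 4 higher at any size. Lefty2 and Lefty1, secreted inhibitors of Nodal that the pathway itself induces, fell, with Lefty2 at 537 and 531 CPM at 24 h and 239 and 231 CPM at 48 h and Lefty1 at 123 and 140.2 CPM at 24 h and 66.1 and 67.1 CPM at 48 h (log2 fold changes -1.18 and -0.98). Tgfbi and both Lefty genes were called in every fit without 1 library. Smad6, an inhibitory SMAD of the BMP branch, had 5.97 and 5.38 CPM at 24 h and 2.56 and 1.78 CPM at 48 h (log2 fold change -1.38 ± 0.24 SE, adjusted p = 0.0092), and its call was lost without each of the 4 libraries in turn (adjusted p up to 0.195). The matrix protein gene Tgfbi went from 2.26 and 1.55 CPM to 8.79 and 8.89 CPM (log2 fold change 2.19 ± 0.20 SE, adjusted p = 2.20e-07), and the ligand gene Tgfb2 had 0.564 and 0.821 CPM at 24 h and 2.48 and 2.49 CPM at 48 h (log2 fold change 1.84 ± 0.38 SE, adjusted p = 0.00933), a call lost without either 24 h library (adjusted p up to 0.146), while without either 48 h library it did not meet the count rule. Nodal itself stood at 69.1 and 71.5 CPM at 24 h and 78.3 and 83.7 CPM at 48 h. The summed level of the list, most of it from Tdgf1 and Lefty2, was 1494 and 1507 CPM at 24 h and 936 and 948 CPM at 48 h.

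In the list of WNT pathway targets 1 of 11 members rose, beside 2.34% of all genes. This was Ccnd2, cyclin D2, with 0.161 and 0.547 CPM at 24 h and 2.08 and 2.49 CPM at 48 h (log2 fold change 2.69 ± 0.47 SE, adjusted p = 0.00113), and its call was lost without 24 h replicate 1 (2.03, adjusted p = 0.0626), while without either 48 h library it did not meet the count rule. The inhibitor of GSK3-β in the medium keeps this pathway active, and the inhibitor of MEK blocks the ERK pathway. Of 17 ERK targets 1 rose, the AP-1 gene Jun, which had 7.03 and 5.96 CPM in DMSO, 2.74 and 1.55 CPM at 24 h and 6.23 and 5.33 CPM at 48 h (log2 fold change 1.41 ± 0.23 SE, adjusted p = 0.00577). Jun was not called without 24 h replicate 2 (1.08, adjusted p = 0.183) or 48 h replicate 1 (1.29, adjusted p = 0.0712).

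Lineage genes rose in a few cases. Of 16 neural genes 5 rose, Prph, Zic1, Cdh4, Nefm and Sox11, and 3 were lower at any size, among them Nes, which encodes nestin (72.1 and 74.0 CPM at 24 h and 43.9 and 43.2 CPM at 48 h), and Tubb2b (426 and 427 CPM at 24 h and 283 and 277 CPM at 48 h). Cdh4, a cadherin of the retina and brain, had 1.37 and 1.46 CPM at 24 h and 6.63 and 5.60 CPM at 48 h (log2 fold change 2.11 ± 0.25 SE, adjusted p = 1.34e-05), and the zinc finger gene Zic1 had 0.242 and 0.0912 CPM at 24 h and 1.12 and 2.22 CPM at 48 h (log2 fold change 3.19 ± 0.64 SE, adjusted p = 0.00368). Sox11, a transcription factor of neural progenitors, and Nefm, a neurofilament gene, had log2 fold changes of 1.40 and 1.82. The call of Sox11 was lost without each library in turn (adjusted p up to 0.0417), that of Zic1 without either 24 h library (up to 0.0698, and the count rule was not met without either 48 h library) and that of Nefm without 24 h replicate 1 or either 48 h library (up to 0.367). Of 6 mesoderm and streak genes measured, 1 rose, Snai1, a repressor of epithelial genes, with 2 counts at 24 h and 29 at 48 h. The ratio was 14.2, with an exact 95% counting interval from 3.60 to 123. Snai1 had been higher in DMSO than at 24 h, with 0.555 and 0.789 CPM in DMSO and 0.161 and 0 CPM at 24 h. At 48 h it had 1.36 and 1.07 CPM. Its call was lost without 24 h replicate 2 (2.84, adjusted p = 0.0671), and without either 48 h library it did not meet the count rule. None of 9 primitive endoderm genes passed the fold test, but all 9 had positive log2 fold changes and 5 were higher at any size, with Hnf4a at 0.806 and 1.00 CPM at 24 h and 3.12 and 2.22 CPM at 48 h (log2 fold change 1.57 ± 0.37 SE, adjusted p = 0.0349) and Apoe at 497 and 488 CPM at 24 h and 786 and 739.9 CPM at 48 h. Hnf4a had stood at 1.29 and 1.36 CPM in DMSO, above its 24 h level. Trophoblast genes had no call among 8, and Ascl2 had the greatest difference (1.19, adjusted p = 0.369). Of 17 genes of the 2-cell-like state 3 met the count rule and none was called; the Zscan4 family, represented by Zscan4a at 0.726 and 0.912 CPM at 24 h and 0.879 and 1.16 CPM at 48 h, consists of near-identical copies whose reads may be split.

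The lists of mitochondrial ribosome, nuclear OXPHOS subunits, mitochondrial chaperones and mtDNA held no gene that passed the fold test, beside 0.911% and 2.34% of all genes. Tissue-specific isoforms of cytochrome c oxidase stand outside these lists, and of these Cox7a1 fell, as given above, while Cox6a2, named after its values were seen, rose from 1.77 and 2.83 CPM to 12.1 and 13.2 CPM (log2 fold change 2.48 ± 0.21 SE, adjusted p = 2.53e-08). Among 81 genes of the mitochondrial ribosome 32 were lower and 6 higher at any size, with a median of -0.13 and a range from -0.63 to 0.46. Among 77 nuclear subunits of oxidative phosphorylation 44 were lower (57.1%) and 1 higher, with a median of -0.20, and their summed level was 13024 and 12688 CPM at 24 h and 11198 and 10912 CPM at 48 h. The member of both lists with the greatest difference was Uqcr10, a subunit of complex III, which had 129 and 134 CPM in DMSO, 14.2 and 14.3 CPM at 24 h and 8.71 and 7.82 CPM at 48 h (log2 fold change -0.78 ± 0.12 SE, adjusted p = 0.246). Mrpl34, of the large mitochondrial ribosomal subunit, had 17.0 and 16.6 CPM at 24 h and 10.2 and 11.6 CPM at 48 h (log2 fold change -0.63 ± 0.12 SE, adjusted p = 1). Among 14 mitochondrial chaperones and proteases 6 were higher and 3 lower at any size, and Trap1, an HSP90 of mitochondria, was the furthest from 0 at 270.3 and 276 CPM at 24 h and 206 and 212 CPM at 48 h (-0.38).

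Of the transcripts of mitochondrial DNA 9 of 15 met the count rule, and they did not move as one. The message mt-Co1, for a core subunit of cytochrome c oxidase, had 6219 and 6449 CPM at 24 h and 3870.2 and 4227 CPM at 48 h (log2 fold change -0.65 ± 0.046 SE, adjusted p = 0.353). The apocytochrome b message mt-Cytb had 1275 and 1319 CPM at 24 h and 904 and 993 CPM at 48 h, and mt-Nd5 and mt-Nd1, for subunits of complex I, had 1152 and 1181 CPM at 24 h and 812 and 930 CPM at 48 h and 2159.8 and 2191 CPM at 24 h and 1661 and 1751 CPM at 48 h. These 4 and mt-Nd4 (-0.27) were lower at any size. In contrast mt-Nd2 had 883 and 895 CPM at 24 h and 827 and 901 CPM at 48 h (-0.04, 0.03 with library size alone), and mt-Nd6 had 14.8 and 23.3 CPM at 24 h and 12.8 and 14.6 CPM at 48 h. The 16S ribosomal RNA gene mt-Rnr2 was higher at any size, at 220.4 and 216 CPM at 24 h and 323 and 340.1 CPM at 48 h (log2 fold change 0.60 ± 0.092 SE, adjusted p = 1), and the 12S gene mt-Rnr1 had 227 and 214 CPM at 24 h and 254 and 267 CPM at 48 h. The libraries were made by selection of poly(A) RNA, and the 2 DMSO libraries differed from each other for mt-Rnr2, at 449 and 299 CPM.

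Cytosolic ribosomal proteins had 32 members lower and 7 higher at any size among 86 and none called, with a median of -0.08 that was -0.01 with library size alone. Of all genes 23.4% were lower and 22.8% higher at any size. Rpl24, the member furthest from 0, was near the count limit at 0.484 and 0.547 CPM at 24 h and 0.879 and 1.24 CPM at 48 h, and processed pseudogenes may share reads with this family.

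Genes of the integrated stress response, in which ATF4 raises genes of amino acid supply, differed little in sum between 24 h and 48 h. Of 34 members 1 rose and 1 fell, with 15 higher and 8 lower at any size, beside 22.8% and 23.4% of all genes (list median 0.08). The summed level was 10339 and 10357 CPM at 24 h and 10487 and 10295 CPM at 48 h, after 8244 and 8003 CPM in DMSO. Atf4 had 552 and 544 CPM at 24 h and 601 and 607 CPM at 48 h (log2 fold change 0.14 ± 0.038 SE, adjusted p = 1), and Ddit3, the factor CHOP, had 59.7 and 58.0 CPM at 24 h and 97.7 and 104 CPM at 48 h (log2 fold change 0.77 ± 0.063 SE, adjusted p = 0.0168). Ppp1r15a, the phosphatase subunit that ends the response, had 71.2 and 73.3 CPM at 24 h and 124 and 123 CPM at 48 h (log2 fold change 0.77 ± 0.055 SE, adjusted p = 0.00624), and Pck2, the mitochondrial enzyme that makes phosphoenolpyruvate, had 174 and 180 CPM at 24 h and 100.3 and 100.3 CPM at 48 h (log2 fold change -0.82 ± 0.052 SE, adjusted p = 5.70e-04). The call of Ppp1r15a was lost without each of the 4 libraries in turn (adjusted p up to 0.0683) and that of Pck2 without 48 h replicate 1 (-0.81, adjusted p = 0.0142) or 48 h replicate 2 (-0.81, adjusted p = 0.0134). The serine synthesis genes Psat1 and Phgdh had log2 fold changes of -0.51 and -0.13. In the unfolded protein response of the endoplasmic reticulum 11 of 18 members were higher and 1 lower at any size with none called, and Herpud1, a factor of protein degradation there, had 66.5 and 71.7 CPM at 24 h and 99.7 and 99.3 CPM at 48 h (log2 fold change 0.53 ± 0.058 SE, adjusted p = 1).

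Most cell cycle genes were lower by small amounts. Of 31 genes of replication licensing and S phase 1 fell, 20 were lower and none higher at any size, with a median of -0.27. Ccne1, cyclin E1, had 115 and 114 CPM at 24 h and 65.0 and 67.0 CPM at 48 h (log2 fold change -0.80 ± 0.057 SE, adjusted p = 0.00302), a call lost without each of the 4 libraries in turn (adjusted p up to 0.0679). The helicase gene Mcm6, the ribonucleotide reductase gene Rrm2 and Cdc6, which loads the helicase, had log2 fold changes of -0.67, -0.68 and -0.69, while the origin recognition genes Orc2 and Orc3 stood at 0.01 and 0.00. Of 26 mitotic genes none was called, 19 were lower and 1 higher at any size, and the median was -0.27. Ccna2, cyclin A2, had 283 and 277 CPM at 24 h and 179.8 and 179 CPM at 48 h (log2 fold change -0.64 ± 0.044 SE, adjusted p = 0.408), and Cenpf, Cenpe and Ttk were within 0.04 of 0.

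Of 21 basement membrane and matrix genes 1 rose. Col4a1, a collagen of basement membranes, had 1.29 and 1.58 CPM in DMSO, 12.3 and 11.5 CPM at 24 h and 40.0 and 36.7 CPM at 48 h (log2 fold change 1.69 ± 0.098 SE, adjusted p = 3.06e-10). Of 19 cytoskeletal and YAP target genes the actin crosslinker gene Flnc rose, at 2.42 and 1.55 CPM at 24 h and 7.83 and 8.09 CPM at 48 h (log2 fold change 1.98 ± 0.23 SE, adjusted p = 1.35e-05), and 8 were lower at any size. Of 22 adhesion genes Cdh3, P-cadherin, fell, at 132 and 139 CPM at 24 h and 70.5 and 69.8 CPM at 48 h (log2 fold change -0.95 ± 0.053 SE, adjusted p = 1.59e-06), and Itgb4, an integrin of hemidesmosomes, rose, at 12 and 15.3 CPM at 24 h and 27.7 and 31.1 CPM at 48 h (log2 fold change 1.11 ± 0.12 SE, adjusted p = 6.80e-04), a call lost without 24 h replicate 1 (0.94, adjusted p = 0.0697) or 48 h replicate 2 (1.03, adjusted p = 0.0197). In the list of interferon and inflammation genes 2 of 15 rose and 1 fell. Tap1, the peptide transporter of antigen presentation, had 1.85 and 2.55 CPM at 24 h and 10.2 and 10.9 CPM at 48 h (log2 fold change 2.26 ± 0.20 SE, adjusted p = 1.19e-07), the costimulatory ligand gene Cd80 had 14.1 and 14.0 CPM at 24 h and 42.0 and 43.1 CPM at 48 h (log2 fold change 1.59 ± 0.100 SE, adjusted p = 2.48e-09), and Relb, a subunit of NF-kB, had 56.0 and 55.8 CPM at 24 h and 30.6 and 31.8 CPM at 48 h (log2 fold change -0.84 ± 0.074 SE, adjusted p = 0.00605), a call lost without each of the 4 libraries in turn (adjusted p up to 0.0956). The other 11 members of that list did not meet the count rule. Imprinted genes had no call among 19, with 10 higher and 3 lower at any size, and Sgce, the member furthest from 0, had 1.45 and 1.55 CPM at 24 h and 3.76 and 2.75 CPM at 48 h (log2 fold change 1.12 ± 0.29 SE, adjusted p = 0.16).

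Markers of other cells were mostly under the count rule. Of 8 markers of feeder cells or fibroblasts 2 met the count rule, 5 had no counts in any of the 4 libraries, and the sum over measured members was 4.19 to 4.65 at 24 h and 8.0 to 8.95 at 48 h, of which the receptor gene Pdgfrb had 2.18 and 2.46 CPM at 24 h and 6.15 and 4.71 CPM at 48 h (log2 fold change 1.24 ± 0.26 SE, adjusted p = 0.0443). Blood cell markers summed to 0.887 to 1.09 CPM at 24 h and 0.533 to 0.959 CPM at 48 h, from Cd3e alone, with 5 of 9 at 0 counts. Endothelial markers, from Vwf and Tek, summed to 61.4 and 61.8 CPM and to 54.3 and 56.8 CPM, and muscle markers, from Des alone, to 3.39 and 3.74 CPM and to 2.96 and 4.44 CPM. None of the members of these 4 lists was called, and the part of other cells in the rise of single lineage genes was not tested.

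**Figure D4:**
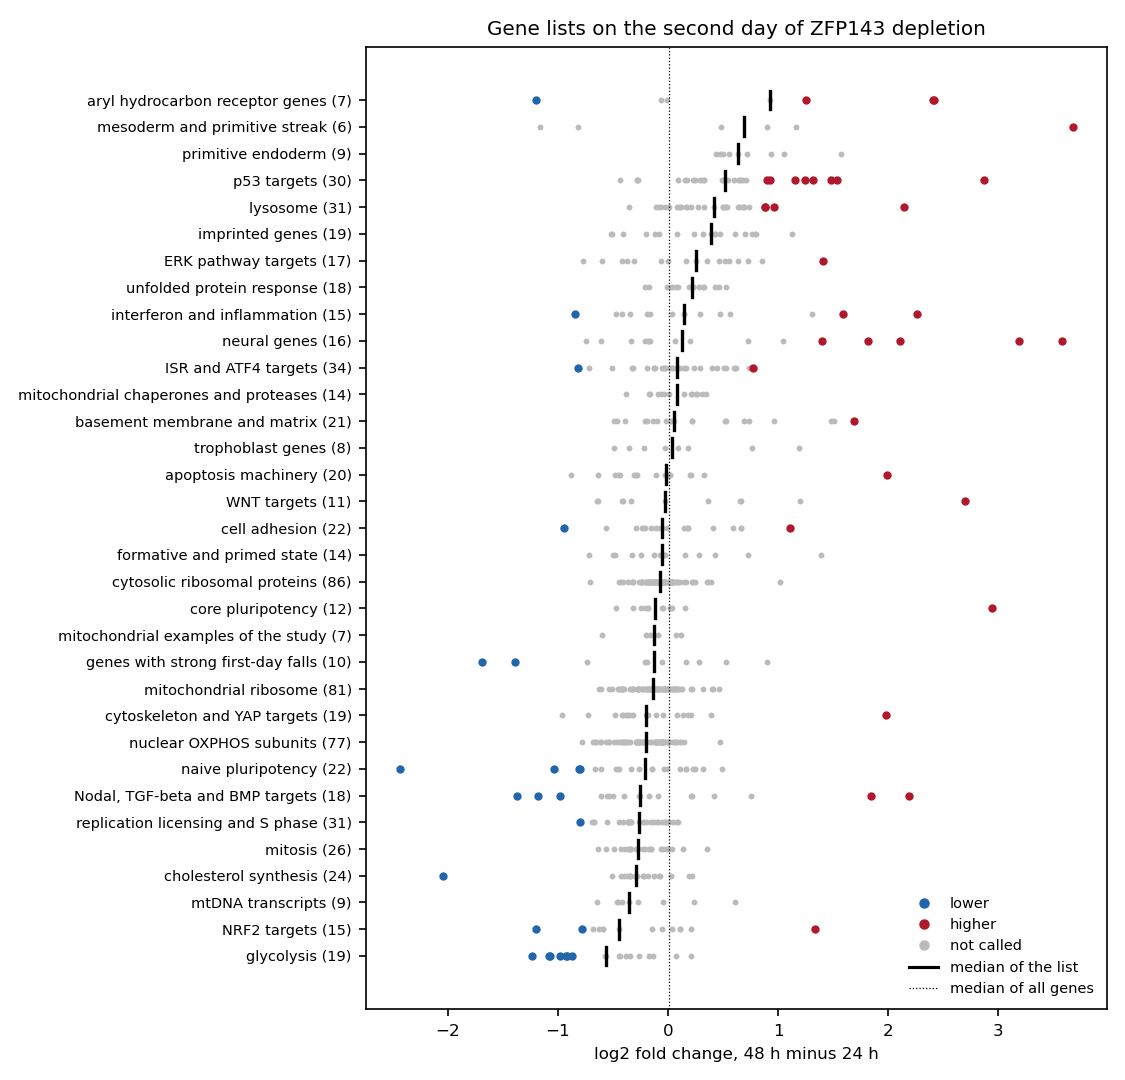
Log2 fold change between 24 h and 48 h for each member of the 33 gene lists with at least 5 members that met the count rule, with the number of such members in brackets, a vertical bar at the median of the list and a dotted line at the median of all genes. Members that passed the fold test stand out in blue (lower) and red (higher): glycolysis has 7 falls and p53 targets 8 rises, and the lists of mitochondrial ribosome and OXPHOS subunits have none.

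Genes with a ZFP143 peak and lower transcription on the first day were called on the second at a share near that of all genes for falls and below it for rises. Nascent transcription had been measured in separate cultures by TT-seq, which labels new RNA, and 4.63% of the 12944 genes measured there were lower and 2.24% higher after 24 h of dTAG-V1 than in DMSO (adjusted p under 0.05 and absolute log2 fold change above 0.5). A ZFP143 peak lay at the promoter of 456 of the lower genes. Of these 5 fell (1.10%) and 4 rose (0.877%) on the second day, beside 0.911% and 2.34% of all genes. At any size 28.1% were lower and 16.9% higher, beside 23.4% and 22.8% of all genes, with a median log2 fold change of -0.05. Of the 132 genes with lower nascent RNA and no peak, 14 fell (10.6%) and none rose, with 61.4% lower at any size and a median of -0.28. Of the 263 genes with higher nascent RNA and no peak, 40 rose (15.2%) and 1 fell, with 64.6% higher at any size and a median of 0.52. Higher nascent RNA with a peak was found for 24 genes, of which none passed the fold test.

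**Figure D5:**
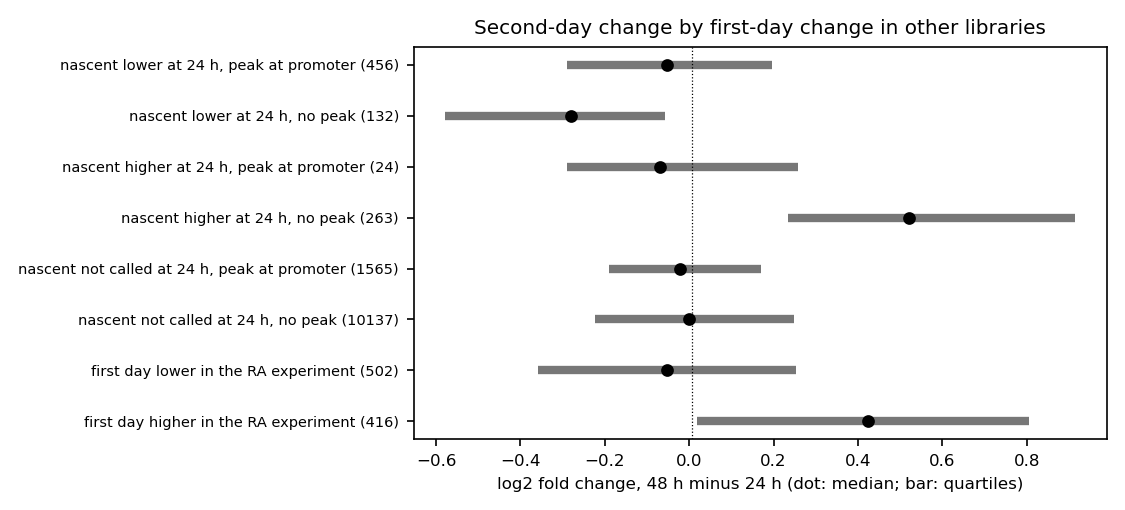
Second-day log2 fold change, as median (dot) and quartiles (bar), of genes grouped by their first-day change in libraries that share none with the 24 h and 48 h RNA-seq samples, with the number of genes in brackets and a dotted line at the median of all genes. Genes without a ZFP143 peak lie on the side of their first-day change, at -0.28 for lower and 0.52 for higher nascent RNA, while genes with a peak and lower nascent RNA lie at -0.05.

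Seen from the second day, the share of genes with a ZFP143 peak at the promoter was 10.2% among those that fell (13 of 127, exact 95% interval 5.56% to 16.9%), 7.69% among those that rose (25 of 325, 5.04% to 11.1%) and 16% among those not called (2019 of 12649, 15.3% to 16.6%), over genes of types with an annotated promoter. The interval covers counting error alone, and the peaks are 1 list without replicates.

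Of the 9 genes with a peak, a lower nascent RNA and a second-day call, which were singled out after their values had been seen, 5 fell further. St3gal2 is described above; Lhpp, a phosphatase, had 64.1 and 55.0 CPM in DMSO, 7.10 and 7.48 CPM at 24 h and 2.56 and 3.02 CPM at 48 h (log2 fold change -1.39 ± 0.20 SE, adjusted p = 0.00232). Itpr1, the calcium channel of the endoplasmic reticulum, had 61.9 and 67.5 CPM in DMSO, 16.6 and 17.1 CPM at 24 h and 6.31 and 8.44 CPM at 48 h (log2 fold change -1.20 ± 0.14 SE, adjusted p = 6.65e-04). H2afy, the histone variant macroH2A1, had 419 and 409 CPM in DMSO, 129 and 129 CPM at 24 h and 75.4 and 77.0 CPM at 48 h (log2 fold change -0.76 ± 0.051 SE, adjusted p = 0.00754). Neil1, a DNA glycosylase of base excision repair, had 15.4 and 15.5 CPM in DMSO, 6.69 and 5.84 CPM at 24 h and 2.72 and 2.31 CPM at 48 h (log2 fold change -1.31 ± 0.21 SE, adjusted p = 0.00642). Without 48 h replicate 1 the call of Itpr1 was lost (adjusted p = 0.0765), and those of Lhpp, H2afy and Neil1 were lost without each of the 4 libraries in turn (adjusted p up to 0.0632, 0.11 and 0.0928).

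The other 4 of the 9 rose. Ctns, the lysosomal cystine exporter, had 30.3 and 28.8 CPM in DMSO, 13.8 and 13.0 CPM at 24 h and 28.9 and 28.1 CPM at 48 h (log2 fold change 1.09 ± 0.098 SE, adjusted p = 1.19e-04) and 38.5 and 39.1 CPM at 72 h, so its 48 h libraries stood near DMSO. Pafah2, a hydrolase of platelet-activating factor and oxidised phospholipids, had 24.9 and 23.8 CPM in DMSO, 5.97 and 5.93 CPM at 24 h and 12.7 and 15.0 CPM at 48 h (log2 fold change 1.21 ± 0.14 SE, adjusted p = 7.83e-04), and stayed below DMSO at 72 h at 12.3 and 12.4 CPM. Dcun1d2, a factor of cullin neddylation, had 19.6 and 23.2 CPM in DMSO, 6.69 and 5.11 CPM at 24 h and 14.9 and 12.9 CPM at 48 h (log2 fold change 1.23 ± 0.16 SE, adjusted p = 0.00132) and 22.1 and 23.6 CPM at 72 h. The non-coding gene 2410006H16Rik had 139 and 136 CPM in DMSO, 183 and 178 CPM at 24 h and 320 and 316 CPM at 48 h (log2 fold change 0.82 ± 0.044 SE, adjusted p = 6.61e-05), and its RNA was not lower at 24 h although its nascent signal was. The call of Ctns held without each library but not in DESeq2 (adjusted p = 0.0231), that of Pafah2 was lost without 24 h replicate 1, 24 h replicate 2 or 48 h replicate 2 (adjusted p up to 0.0224) and that of Dcun1d2 without 24 h replicate 2 or 48 h replicate 1 (up to 0.0579).

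Of the 9 genes 5 had a window in the RefSeq promoter table, and a ZFP143 peak overlapped each of them. Sequences are shown for 3 of the 5, Pafah2 and Ctns because they held letters of the ZFP143 motif and Neil1 as the one that fell, while Dcun1d2 and 2410006H16Rik, which also rose, held no such letters and are not shown. The 250 bases before the RefSeq start (GRCm38.p6, 5′ to 3′ on the strand of the gene) are given for Pafah2, Ctns and Neil1, with matches in capitals to ACTACA or TCCCAG on either strand, which are letters of the known ZFP143 motif and do not overlap each other in these windows.
Pafah2, chr4:134396070-134396319, plus strand: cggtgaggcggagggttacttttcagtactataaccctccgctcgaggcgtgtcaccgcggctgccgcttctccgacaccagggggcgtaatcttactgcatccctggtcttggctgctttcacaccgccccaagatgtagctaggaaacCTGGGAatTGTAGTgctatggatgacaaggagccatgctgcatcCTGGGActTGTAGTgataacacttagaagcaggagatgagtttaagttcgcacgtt
Ctns, chr11:73199043-73199292, minus strand: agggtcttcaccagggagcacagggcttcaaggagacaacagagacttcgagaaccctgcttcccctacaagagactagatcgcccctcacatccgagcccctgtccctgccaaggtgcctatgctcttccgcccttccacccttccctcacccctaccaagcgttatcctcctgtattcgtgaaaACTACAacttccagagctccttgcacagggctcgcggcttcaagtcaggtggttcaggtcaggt
Neil1, chr9:57148306-57148555, minus strand: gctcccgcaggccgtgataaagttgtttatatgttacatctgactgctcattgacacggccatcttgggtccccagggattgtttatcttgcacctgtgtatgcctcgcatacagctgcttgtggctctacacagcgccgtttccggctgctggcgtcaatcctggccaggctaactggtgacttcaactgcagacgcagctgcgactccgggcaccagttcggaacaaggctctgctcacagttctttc
The peak spans chr4:134395959-134396589 at Pafah2, chr11:73198833-73199297 at Ctns and chr9:57147830-57148509 at Neil1 (mm10). Pafah2 held both letter groups side by side in 2 places, Ctns held ACTACA once, and Neil1, Dcun1d2 and 2410006H16Rik held neither in this window, so 2 of the 4 risen genes and the fallen gene had no match. H2afy, Itpr1, Lhpp and St3gal2 had no entry in the table. Over all 32851 RefSeq windows of this length 8.92% held ACTACA and 27.0% held TCCCAG, against 29.5% and 39.5% of the 2121 windows of measured genes with a ZFP143 peak. Among the 450 windows of genes called on the second day the shares were 6.89% and 32.2%, and among the 41 of these with a ZFP143 peak they were 19.5% and 26.8%. A match is a description of letters and not a measured site.

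A list of genes with strong first-day falls and the study's own mitochondrial examples were chosen on samples of this series. They are not independent evidence of a direction. Of 16 genes with strong first-day falls 10 met the count rule at these times, and 2 of them, St3gal2 and Lhpp, fell further. Their summed level was 597 and 576 CPM in DMSO, 56.1 and 54.9 CPM at 24 h and 42.7 and 45.0 CPM at 48 h. Bckdk, a kinase of branched-chain amino acid breakdown, had 4.27 and 3.47 CPM at 24 h and 3.36 and 3.38 CPM at 48 h, and Pycard, an inflammasome adaptor, had 1.69 and 1.37 CPM at 24 h and 1.12 and 1.6 CPM at 48 h. Mpi, an isomerase of mannose metabolism, had 0.887 and 1.55 CPM at 24 h and 0.480 and 0.977 CPM at 48 h. In DMSO these 3 stood at 80.1 and 81.5, 39.4 and 38.8 and 70.0 and 67.1 CPM, so both times lay far below. Cpox, an enzyme of heme synthesis, had 5.48 and 4.93 CPM at 24 h and 3.76 and 6.40 CPM at 48 h, and Cldnd1, Prmt6 and Ifrd2 had log2 fold changes of 0.17, 0.28 and 0.53. Rpp30, a subunit of ribonuclease P, had 30.9 and 31.9 CPM in DMSO, 3.47 and 2.55 CPM at 24 h and 5.83 and 5.51 CPM at 48 h (log2 fold change 0.90 ± 0.20 SE, adjusted p = 0.25) and 13.1 and 13.4 CPM at 72 h.

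Of the 7 mitochondrial examples none was called, 2 were lower at any size, and the median was -0.12. Tfam, which packages and transcribes mitochondrial DNA, had 78.9 and 77.6 CPM at 24 h and 70.3 and 73.5 CPM at 48 h (log2 fold change -0.12 ± 0.058 SE, adjusted p = 1). The elongation factor gene Tufm had 44.5 and 45.0 CPM at 24 h and 38.9 and 39.0 CPM at 48 h and Cyc1, cytochrome c1, had 214 and 209 CPM at 24 h and 194 and 184 CPM at 48 h, both lower at any size. Ndufab1 had 28.7 and 28.2 CPM at 24 h and 32.2 and 29.6 CPM at 48 h, Coa3 had 10.9 and 10.1 CPM at 24 h and 12.5 and 9.51 CPM at 48 h, and Dnm1l, the fission GTPase, had 157 and 148 CPM at 24 h and 138 and 148 CPM at 48 h. Mtrf1, a release factor of mitochondrial translation, was near the count limit at 1.45 and 3.10 CPM at 24 h and 2.16 and 0.711 CPM at 48 h.

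Genes called on the second day were next compared with libraries that took no part in the contrast, although the 72 h and DMSO libraries belong to the same fit. In the same time course 12.3% of the genes were lower and 13.2% higher at 72 h than in DMSO by the fold test. Of the 128 genes that fell between 24 h and 48 h, 117 (91.4%) were lower at 72 h than in DMSO and none higher, with a median log2 fold change of -1.91. Of the 329 that rose, 310 (94.2%) were higher and 1, Pafah2, was lower, with a median of 2.67. Without DMSO replicate 1 the counts were 118 and 300.

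An independent experiment of the series, done before the addition of retinoic acid (RA), compared 24 h of dTAG-V1 with 24 h of DMSO in 2 libraries each and gives a first-day change from other libraries. There 3.62% of 13874 genes were lower and 3% higher. Of the 124 second-day falls measured there 14 were already lower (11.3%) and 1, Tdrd12, was higher, with a median log2 fold change of -0.25. Of the 315 rises measured 42 were higher (13.3%) and 13 lower (4.13%), with a median of 0.44. In nascent RNA at 24 h, 19 of 123 falls were lower (15.4%) and 40 of 275 rises were higher (14.5%), with medians of -0.40 and 0.58. The exceptions in direction were Apela, which encodes a ligand of the apelin receptor, fell on the second day and had higher nascent RNA at 24 h (its call was lost in DESeq2 and without 24 h replicate 1 or either 48 h library, adjusted p up to 0.191), and 4 risen genes with lower nascent RNA, which were Ctns, Pafah2, Dcun1d2 and 2410006H16Rik.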

How the data were processed

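RNA was measured in ZFP143-FKBP mESCs by TruSeq Stranded mRNA sequencing, in 2 libraries each of DMSO and of 24 h, 48 h and 72 h of dTAG-V1. The authors mapped the reads with STAR to mm10 and deposited counts per gene from the gene counting mode of STAR with a GENCODE annotation. Which strand column was kept is not given in the sources used here, so overlapping and antisense genes are uncertain, as are families of near-identical copies. Where 2 gene IDs shared a symbol, the one with the higher mean CPM stood for it in the lists. The deposited TT-seq and RA tables hold counts of the same kind, and the authors' ZFP143 peak list gives a fold enrichment ratio and a −log10 q-value per peak (MACS2, input as control). A peak was assigned to a promoter if it overlapped 2000 bp upstream to 1000 bp downstream of a transcript start and its centre lay within 2000 bp.

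Counts were analysed in R 4.3.3 with edgeR 4.0.16 (limma 3.58.1), in 1 quasi-likelihood fit of the 8 libraries in 4 groups with TMM scaling and the contrast 48 h minus 24 h, on genes with counts above 10 in at least 2 of the 4 libraries. The test was glmTreat against a fold change of 1.5 at an adjusted p (Benjamini-Hochberg over all genes tested) under 0.01, and "rose" and "fell" are used of these genes only. A second test against 0 at an adjusted p under 0.05 is called "any size". In TT-seq a gene was called at an adjusted p under 0.05 if its log2 fold change exceeded 0.5 in size, and both other tables kept genes with counts above 10 in at least 4 libraries. Log2 fold changes are given ± SE. DESeq2 1.42.0, other scalings and filters, a replicate block and fits without each library were tried as alternatives. The test was tried on simulated data. With total counts of 10760455 to 12496700 per library, precision is limited at low levels, and counting intervals cover counting error only.

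Named genes were the 12 protein-coding genes with the greatest increase and the 12 with the greatest decrease (mean count of at least 100, no overlap between times, no clone names). Also named were up to 3 called members per list or else the member with the greatest change, and all mtDNA transcripts. The study's mitochondrial examples, the genes with strong first-day falls and a few fixed markers completed the set. Other list members named were picked after their values were seen. The genes and lists were chosen with earlier results of these data known. A few genes that this rule or a list would name are not reported here.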

Additional observations from a re-analysis of the deposited data

How the results depend on the processing

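No named gene called in the report changed direction under the alternatives tried, but the number of calls depended on the test and on the libraries. Leaving out 1 of the 4 libraries gave 77 to 90 falls and 169 to 202 rises, against 128 and 329. DESeq2 gave 59 and 115, all of them among the genes called by edgeR, and an adjusted p under 0.05 with an absolute log2 fold change above 0.5 gave 956 and 1545. Library size alone as the scaling gave 94 falls and 421 rises, 81.7% of calls higher against 72.0%, and put the median log2 fold change of all genes at 0.075, against 0.0056. The list medians of WNT targets, apoptosis machinery, cell adhesion and formative and primed state went from -0.031, -0.023, -0.051 and -0.053 to 0.038, 0.046, 0.018 and 0.016. At any size library size alone gave 2436 lower and 4013 higher, an excess of higher genes against 3285 and 3200, while the other alternatives gave 2423 to 3399 lower and 2177 to 3342 higher, with more genes lower than higher in each. With library size alone Pck2, Prdx1, Ccne1, Smad6 and Relb lost their calls and Ddit3 was called. DESeq2's size factors, no count filter, a filter over 8 libraries and a fit of the 4 libraries alone gave 127 to 141 falls and 323 to 364 rises. Among the named genes Ppp1r15a lost its call with no count filter (adjusted p = 0.0407) and Smad6 with the filter over 8 libraries (adjusted p = 0.0101), and Ddit3 was called in the fit of the 4 libraries (adjusted p = 0.00987). The share of genes not called with a ZFP143 peak was 14.6% with the peak centre within 500 bp, against 16%. Second-day rises lower at 72 h than in DMSO numbered 0 with library size alone, against 1. The fit without DMSO replicate 1 was added after seeing the data.

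With the replicate number as a replicate block the counts were 122 and 323, and in the 4 libraries alone 139 and 371, a fit added after seeing the data. The deviations of 24 h and 48 h libraries with the same number had a correlation of 0.0017, so the numbers gave no sign of pairing. Among the named genes Tgfb2 lost its call under the replicate block, and Ppp1r15a in the 4 libraries alone with it.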
